A study of Rattus norvegicus with 6 samples.

Results

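Genes of mitosis and cytokinesis were examined in cultured rat heart cells that had been given human cardiotrophin 1 or control medium. The set was a list of 55 symbols whose products act in, or control, the steps from entry into mitosis to the final separation of daughter cells. It was chosen with earlier results of these data known. A gene was measured when the array table held a probe set paired with its symbol and with no other, and the brightest such probe set over all 6 samples stood for the gene. By this rule 46 of the 55 genes were measured, out of 14506 genes in all. The other 9, Espl1, Cenpe, Cenpf, Spc24, Ckap2, Ncapg, Ncaph, Mki67 and Anln, were not analysed here. The cells were primary ventricular cardiomyocytes of Sprague-Dawley rats aged 2 days, passed through 2 rounds of pre-plating that remove fibroblasts, and held in serum-free medium for up to 24 h. They then received hCT1, the recombinant human protein, at 0.5 nM for 24 h (hCT1, 3 samples), or control serum-free medium for the same time (Control, 3 samples). No genetic change was made in either group. The labels give 1 growth medium for all 6 samples, serum-free with an added hypertrophic agonist, whereas the treatment text describes the Control medium as serum-free only. RNA was isolated in triplicate, and nothing says that the 3 samples of a group came from separate cultures, so each p-value covers only how far these samples differ from one another, which could be technical.

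In a dividing cell, cyclin B bound to Cdk1 drives entry into mitosis, Aurora and Polo-like kinases build the spindle, and the spindle checkpoint holds back the anaphase-promoting complex until every kinetochore is attached. Separase then releases the sister chromatids, and the central spindle and a contractile ring divide the cytoplasm. Most of these genes are transcribed late in the cell cycle. MuvB complexes, joined by B-Myb and then FoxM1, bind a promoter element called the cell cycle genes homology region (CHR), and NF-Y binds CCAAT boxes near it. In resting cells the DREAM complex, which also contains MuvB, holds the same genes down. Rat cardiomyocytes leave the cell cycle in the first weeks after birth, many of them after a round of mitosis without cytokinesis, so a neonatal culture can still hold cycling myocytes as well as cycling cells of other types.

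Promoter stretches of 6 of these genes are printed because the members share such elements. Each is the 160 bases before the annotated start, 5′ to 3′ on the gene's strand, from RefSeq on the GRCr8 assembly. Capitals mark CHR letters (TTTGAA or TTTAAA) and CCAAT, found on either strand, so that TTCAAA and ATTGG are the same elements read on the other strand. The first 4 genes have the smallest adjusted p among members with both elements in the stretch. Cdc25c and Bub3 are the members whose mean difference was not negative.
Nusap1, chr3:127057135-127057294, plus strand: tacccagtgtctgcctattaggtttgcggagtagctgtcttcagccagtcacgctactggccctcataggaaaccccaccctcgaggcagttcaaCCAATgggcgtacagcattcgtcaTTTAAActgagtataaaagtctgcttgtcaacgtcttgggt
Kif23, chr8:71320585-71320744, minus strand: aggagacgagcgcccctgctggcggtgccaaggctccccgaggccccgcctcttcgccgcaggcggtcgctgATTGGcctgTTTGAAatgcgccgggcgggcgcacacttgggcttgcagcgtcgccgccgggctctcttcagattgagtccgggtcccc
Top2a, chr10:84473094-84473253, minus strand: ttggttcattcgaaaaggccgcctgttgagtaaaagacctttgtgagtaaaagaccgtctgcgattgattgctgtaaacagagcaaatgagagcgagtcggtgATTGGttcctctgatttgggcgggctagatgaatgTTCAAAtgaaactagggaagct
Kif20a, chr18:26504262-26504421, plus strand: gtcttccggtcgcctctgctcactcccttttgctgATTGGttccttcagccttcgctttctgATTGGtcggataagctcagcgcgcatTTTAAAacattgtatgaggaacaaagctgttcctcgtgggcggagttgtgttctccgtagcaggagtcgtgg
Cdc25c, chr18:26630293-26630452, minus strand: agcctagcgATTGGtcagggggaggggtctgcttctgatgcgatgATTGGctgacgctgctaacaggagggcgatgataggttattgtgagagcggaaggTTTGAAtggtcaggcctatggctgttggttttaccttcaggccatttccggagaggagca
Bub3, chr1:195760372-195760531, plus strand: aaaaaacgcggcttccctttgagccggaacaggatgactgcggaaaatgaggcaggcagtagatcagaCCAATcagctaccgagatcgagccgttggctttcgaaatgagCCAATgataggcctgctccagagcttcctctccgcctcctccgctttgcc

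Letters matching the CHR stood in 34 of the 38 members with a promoter entry (89.5%), against 2849 of 11950 genes tested (23.8%), in windows of 300 bases from 250 before to 50 after the start. CCAAT stood in 31 members (81.6%) and in 38.4% of genes tested. Both elements were present in 27 members (71.1%) and in 9.76% of genes tested, and 2 or more CCAAT boxes in 24 members (63.2%) against 12.5%. The elements lay near the start, with a CHR match from 100 bases before to 50 after it in 32 of 38 members (84.2%) and in 10.4% of genes tested. Cdca3, Nek2, Cenpk and Bub3 had no CHR letters in the window. By array result, CHR letters stood in 22 of 25 promoters of genes that passed as lower (88.0%) and in 12 of 13 of genes that did not pass (92.3%), with CCAAT in 84.0% and 76.9%. Cdc25c, with a mean difference near 0, carries a CHR and 2 CCAAT boxes in the stretch printed above. Ccna2, Foxm1, Tpx2, Aurkb, Incenp, Ube2c, Cdca2 and Racgap1 had no promoter entry. A match is a description of letters and not a binding site.

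**Figure D1:**
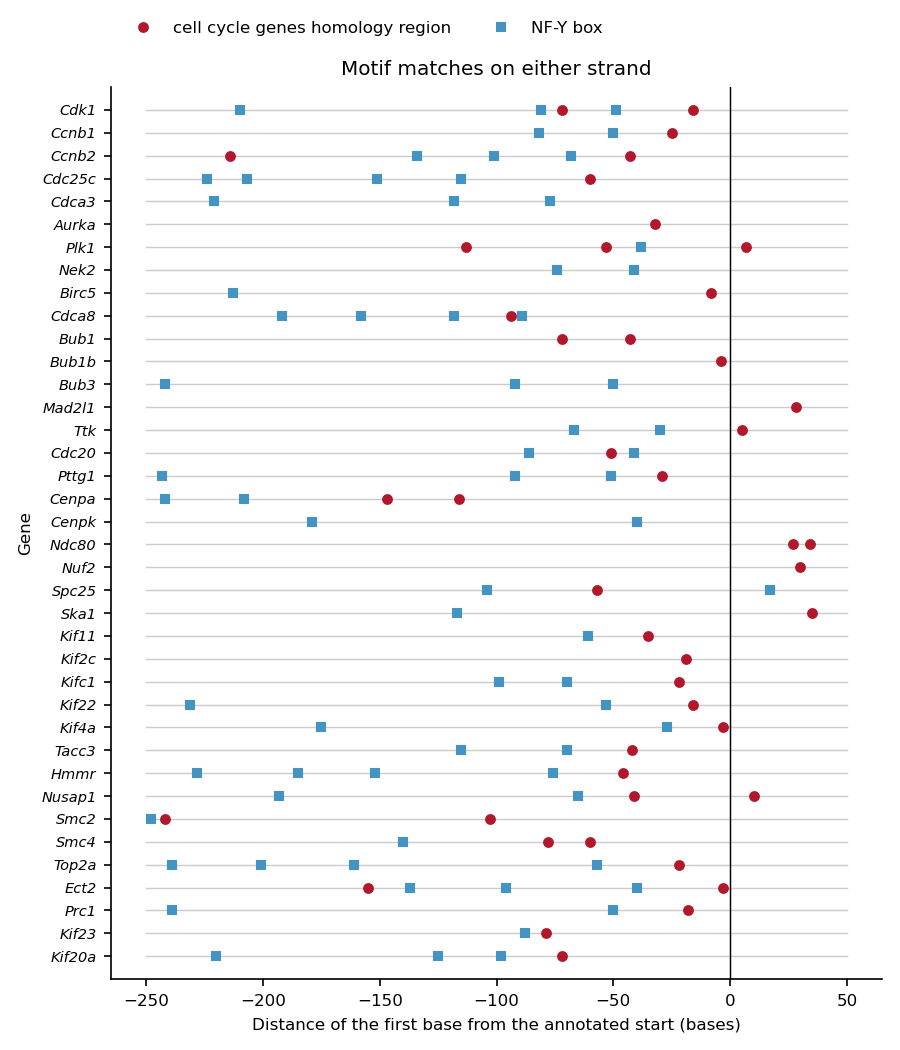
Positions of CHR and CCAAT letters (NF-Y box) in the promoter windows of members, as distance in bases from the annotated start (x axis), 1 row per gene. CHR matches of 32 of the 38 members lie from 100 bases before to 50 after the start.

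Of the 46 genes measured, 32 were lower in hCT1 than in Control, 0 were higher and 14 did not pass the test. The test was limma on log2 signal with Benjamini-Hochberg adjustment over all probe sets with 1 symbol, at an adjusted p of 0.05, and fold values are on the linear scale. At an unadjusted p under 0.05 in the same limma fit, 41 members were lower and 0 higher, and analysis of variance also gave 0 higher. Over all 14506 genes, 1390 were lower (9.58%) and 739 were higher (5.09%). Because the members were chosen with earlier results of these data known, the contrast with all genes is a description. The shifts were small, with a median difference, hCT1 minus Control, of -0.29 on the log2 scale (1.22-fold lower) against -0.0005 over all genes. Values ran from -0.58 to 0.03, with standard errors of 0.05 to 0.10, and 28 members were lower by at least 1.2-fold, 5 by at least 1.4-fold and 0 by at least 1.5-fold. All 3 hCT1 samples lay below all 3 Control samples in 41 members and above them in 0, where 20.0% and 14.2% of all genes did so. The highest of the 6 samples was a Control sample in 46 of 46 members and the lowest an hCT1 sample in 44. The 46 include Bub3 and Cdc25c, whose mean differences were above 0, and the share over all genes was not counted. An exact permutation test of 1 gene with 3 samples a group cannot give a p below 0.1, so the calls rest on an assumed model of the error. Limma also shares variance across probe sets, and analysis of variance, which does not, called 15 members lower after adjustment. The array cannot tell fewer dividing cells from less RNA of these genes per cell.

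**Figure D2:**
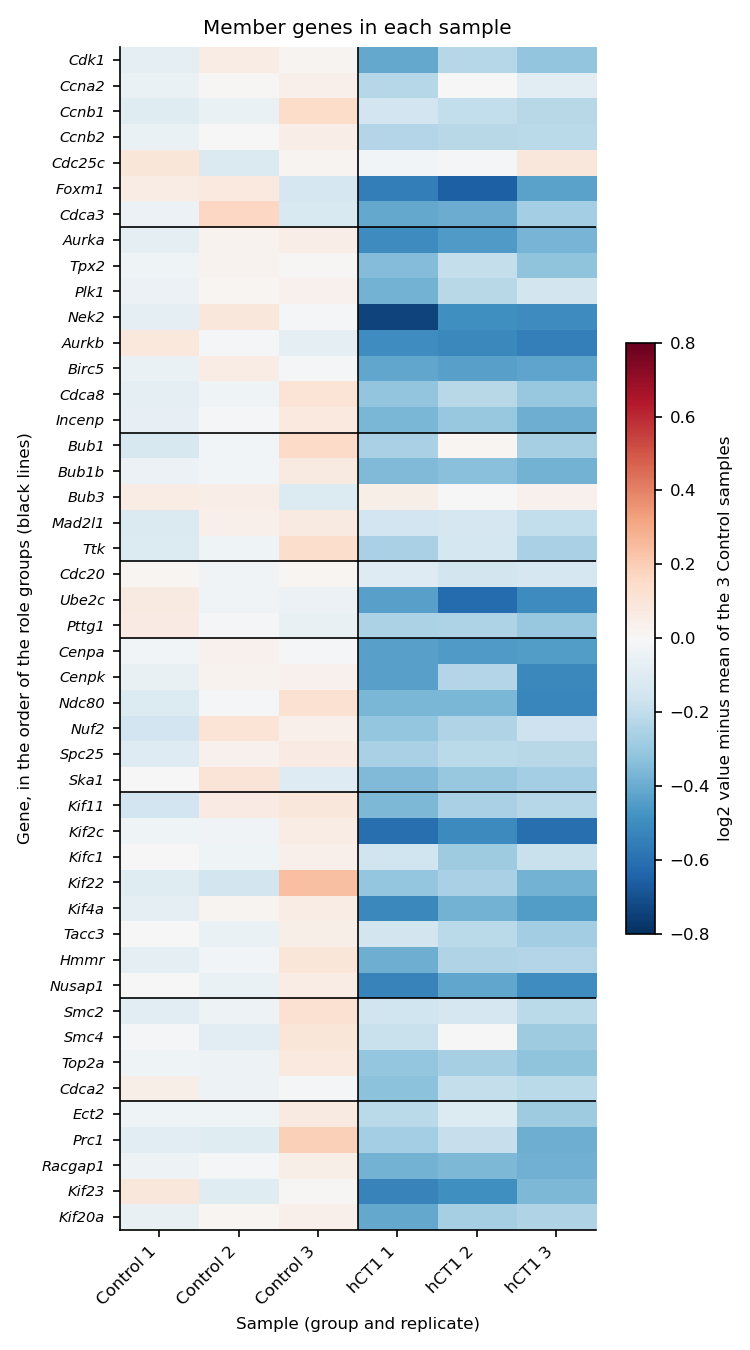
Log2 signal of each member in the 6 samples, as the difference from its Control mean, drawn as a colour from blue (below) to red (above). The columns of hCT1 are blue for most genes, and 41 of 46 members do not overlap between groups.

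The 3 hCT1 samples lay together. Averaged over the 46 members, hCT1 samples 1, 2 and 3 were -0.33, -0.27 and -0.31 from the Control mean on the log2 scale, and Control samples 1, 2 and 3 were -0.04, -0.003 and 0.04. Control 3 was the highest Control sample for 29 members, and hCT1 2 the highest hCT1 sample for 24. The array medians over all probe sets were 5.50 to 5.58 on the log2 scale, and samples of a group correlated across probe sets at 0.997 to 0.998 against 0.994 to 0.996 between groups. With 1 sample left out, the number lower was 28 without Control 1, 17 without Control 2, 26 without Control 3, 19 without hCT1 1, 24 without hCT1 2 and 23 without hCT1 3, and 0 were higher in each case. The 17 genes lower in all 6 of these fits were Foxm1, Aurka, Nek2, Aurkb, Birc5, Incenp, Bub1b, Ube2c, Cenpa, Cenpk, Ndc80, Kif2c, Kif4a, Nusap1, Top2a, Racgap1 and Kif23. Of these, Foxm1, Nek2, Ndc80 and Kif23 were among those that lost the call by analysis of variance with adjustment.

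**Figure D3:**
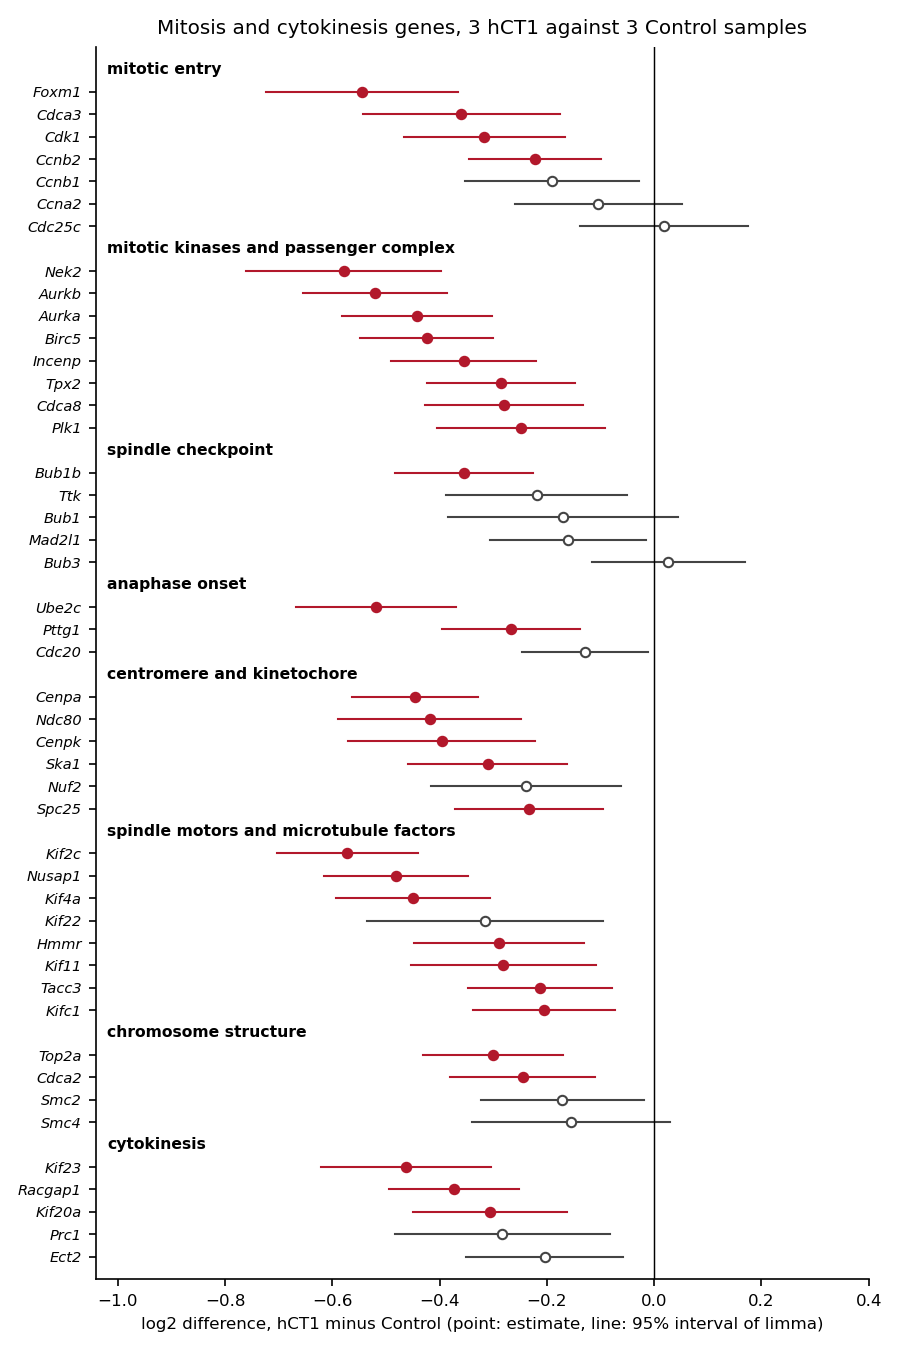
Difference of hCT1 minus Control on the log2 scale (x axis) with its 95% interval for each of the 46 members, grouped by role, with filled red points for genes that passed and open points for those that did not. The largest falls are Nek2 (-0.58) and Kif2c (-0.57), and Bub3 (0.03) and Cdc25c (0.02) are the members above 0.

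Among genes of mitotic entry, 4 of 7 were lower and the other 3 did not pass. Their median difference was -0.22. Foxm1, the transcription factor of late cell cycle genes, was 8.98, 9.0 and 8.79 on the log2 scale in Control and 8.37, 8.27 and 8.49 in hCT1. Its groups lay apart, and it fell by 0.54 (SE 0.08, 1.46-fold lower, adjusted p = 0.00244). Cdk1, the kinase that drives entry, was 8.17, 8.30 and 8.26 in Control and 7.84, 8.01 and 7.93 in hCT1, a difference of -0.32 (SE 0.07, adjusted p = 0.014). Cdk1 did not pass without Control 2 or without hCT1 1. By analysis of variance with adjustment neither Foxm1 (adjusted p = 0.055) nor Cdk1 (adjusted p = 0.0762) passed. Ccnb2, a B-type cyclin that partners Cdk1, was lower by -0.22 (adjusted p = 0.0263), and its other probe set gave -0.23 (adjusted p = 0.0289). Cdca3, a trigger of the destruction of the Wee1 kinase at mitotic entry, differed by -0.36 (adjusted p = 0.0193). Both Ccnb2 and Cdca3 lost the call without Control 2, hCT1 1 or hCT1 2, and Ccnb2 also without hCT1 3. The other B-type cyclin, Ccnb1, differed by -0.19 (95% interval -0.35 to -0.03, adjusted p = 0.11), and Ccna2, the cyclin of S phase and early mitosis, by -0.10 (-0.26 to 0.05, adjusted p = 0.349). Cdc25c, a phosphatase that activates Cdk1, was 6.69, 6.47 and 6.61 in Control and 6.57, 6.58 and 6.68 in hCT1. Its groups overlapped, and the difference of 0.02 had a 95% interval of -0.14 to 0.17.

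All 8 mitotic kinases, their partners and chromosomal passenger subunits were lower, with a median of -0.39. The passenger complex, made of Aurora B, survivin, borealin and INCENP, corrects faulty attachments and later acts at the central spindle. Aurkb was 8.65, 8.55 and 8.49 in Control and 8.07, 8.04 and 8.01 in hCT1, and fell by 0.52 (SE 0.06, 1.43-fold lower, adjusted p = 0.00069). Birc5, which encodes survivin, was 6.64, 6.75 and 6.68 in Control and 6.27, 6.26 and 6.27 in hCT1, and fell by 0.42 (SE 0.06, 1.34-fold lower, adjusted p = 0.00136). The groups lay apart in both genes. Incenp differed by -0.36 (adjusted p = 0.00522) and Cdca8, which encodes borealin, by -0.28 (adjusted p = 0.0214). Aurka, the centrosome kinase, differed by -0.44 (adjusted p = 0.00203) and its activator Tpx2 by -0.28 (adjusted p = 0.0155). Nek2, a kinase that separates the centrosomes and was picked out here after its values were seen, had the largest mean difference of the 46, from 7.89, 8.05 and 7.95 in Control to 7.22, 7.47 and 7.46 in hCT1. It fell by 0.58 (SE 0.08, 1.49-fold lower, adjusted p = 0.00193), and its 2 probe sets hold the same values, so they are not separate measurements. Nek2 did not pass by analysis of variance with adjustment. Plk1, the Polo-like kinase, was nearest the threshold at 8.86, 8.92 and 8.94 in Control and 8.53, 8.69 and 8.76 in hCT1 (difference -0.25, SE 0.07, adjusted p = 0.0421). Plk1 passed in 1 of the 6 fits with a sample left out, that without hCT1 3. Tpx2 and Cdca8 lost the call without Control 2, hCT1 1 or hCT1 3.

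Of 5 spindle checkpoint genes, 1 was lower and the other 4 did not pass. Their median difference was -0.17. Bub1b, the BubR1 subunit of the inhibitor of the anaphase-promoting complex, was 7.0, 7.03 and 7.13 in Control and 6.70, 6.72 and 6.67 in hCT1. It fell by 0.35 (SE 0.06, adjusted p = 0.00395), with no overlap. Ttk, the Mps1 kinase that starts the checkpoint signal, was 6.81, 6.89 and 7.06 in Control and 6.66, 6.78 and 6.67 in hCT1, a difference of -0.22 (95% interval -0.39 to -0.05, adjusted p = 0.0818). Bub3, which brings BubR1 to the kinetochore, was 7.46, 7.45 and 7.29 in Control and 7.44, 7.40 and 7.43 in hCT1, with overlapping groups and a difference of 0.03 (-0.12 to 0.17, adjusted p = 0.819). Mad2l1, the Cdc20 binding subunit, differed by -0.16 (adjusted p = 0.128), and Bub1, a kinase at the kinetochore, by -0.17 (-0.39 to 0.04, adjusted p = 0.265). Whether checkpoint genes differ from the other roles was not tested.

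At anaphase onset, 2 of 3 genes were lower, with a median of -0.27. Ube2c, the ubiquitin-conjugating enzyme of the anaphase-promoting complex, was 8.30, 8.20 and 8.18 in Control and 7.80, 7.61 and 7.73 in hCT1. It fell by 0.52 (SE 0.07, 1.43-fold lower, adjusted p = 0.00122). Pttg1, which encodes securin, the separase inhibitor, was 8.85, 8.78 and 8.72 in Control and 8.53, 8.54 and 8.48 in hCT1, a difference of -0.27 (SE 0.06, adjusted p = 0.0153). Its call was lost without Control 1, Control 2 or hCT1 3. Cdc20, the activator of the complex, was 9.14, 9.10 and 9.14 in Control and 9.02, 8.98 and 8.99 in hCT1. Its samples did not overlap, but the difference of -0.13 (95% interval -0.25 to -0.01) had an adjusted p of 0.134. By analysis of variance with adjustment Cdc20 passed (adjusted p = 0.0495).

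In the centromere and kinetochore group, 5 of 6 genes were lower, with a median of -0.35. Cenpa, the histone H3 variant that marks centromeres, was 6.83, 6.88 and 6.83 in Control and 6.41, 6.40 and 6.40 in hCT1. It fell by 0.45 (SE 0.05, 1.36-fold lower, adjusted p = 0.000774). Ndc80, the microtubule-binding subunit of the outer kinetochore, was 7.56, 7.66 and 7.79 in Control and 7.30, 7.30 and 7.14 in hCT1, and fell by 0.42 (SE 0.08, adjusted p = 0.00714). Ndc80 did not pass by analysis of variance with adjustment (adjusted p = 0.0747). Both genes had separate groups, and the 3 hCT1 values of Cenpa had an SD of 0.01. Its complex partner Nuf2 was 7.33, 7.59 and 7.53 in Control and 7.17, 7.24 and 7.32 in hCT1 (difference -0.24, 95% interval -0.42 to -0.06, adjusted p = 0.0722), and passed without Control 1. Spc25, of the same complex, differed by -0.23 (adjusted p = 0.0338), Cenpk of the inner kinetochore by -0.40 (adjusted p = 0.0103), and Ska1, which keeps the kinetochore on the microtubule, by -0.31 (adjusted p = 0.0147). Spc25 passed only without Control 1, and Ska1 lost the call without Control 2 or hCT1 1.

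**Figure D4:**
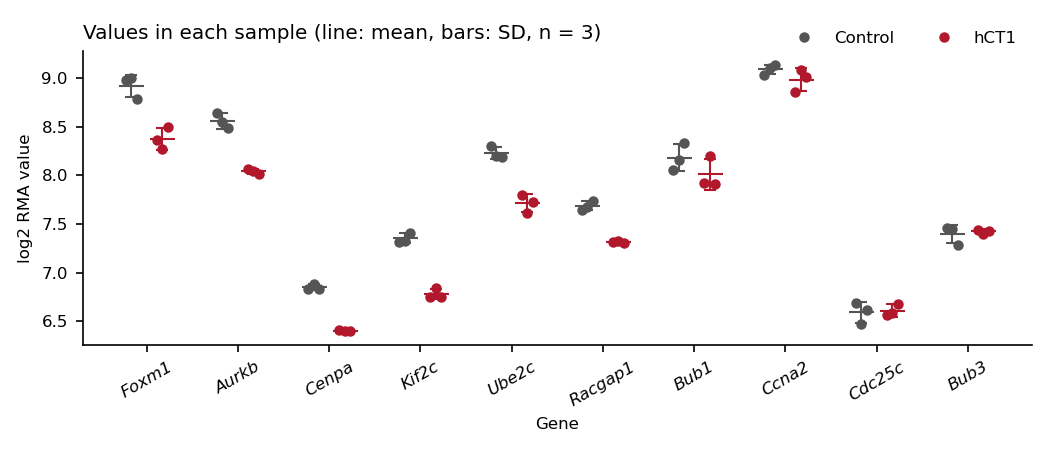
Log2 signal of selected members in each Control and hCT1 sample, with the mean and SD of each group of 3. Foxm1, Aurkb and Kif2c have separate groups, and Bub3 and Cdc25c overlap.

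Of 8 spindle motors and microtubule factors, 7 were lower, with a median of -0.30. The count was 3 after another quantile normalization, 4 after centring and 3 by analysis of variance with adjustment. Kif2c, a kinesin that takes microtubules apart at the centromere, was 7.32, 7.32 and 7.41 in Control and 6.75, 6.84 and 6.75 in hCT1. It fell by 0.57 (SE 0.06, 1.49-fold lower, adjusted p = 0.000366), the smallest adjusted p of the 46. Nusap1, which bundles spindle microtubules, was 8.21, 8.16 and 8.27 in Control and 7.68, 7.80 and 7.72 in hCT1, and fell by 0.48 (SE 0.06, 1.4-fold lower, adjusted p = 0.001). Neither gene had overlapping samples. The chromosome motor Kif4a differed by -0.45 (adjusted p = 0.0021), the plus-end motor Kif11 by -0.28 (adjusted p = 0.0384), the minus-end motor Kifc1 by -0.21 (adjusted p = 0.0467), Tacc3, which stabilises kinetochore fibres, by -0.21 (adjusted p = 0.0426), and Hmmr, a spindle assembly factor, by -0.29 (adjusted p = 0.0253). Kifc1 and Tacc3 passed in 0 of the 6 fits with a sample left out, Kif11 in that without Control 1, and Hmmr in those without Control 1 or hCT1 3. Kif22, a chromokinesin, was 7.41, 7.36 and 7.75 in Control and 7.20, 7.25 and 7.13 in hCT1, with Control 3 high (difference -0.32, SE 0.10, adjusted p = 0.0612).

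In chromosome structure, 2 of 4 genes were lower, with a median of -0.21. Top2a, the topoisomerase that untangles sister chromatids, was 9.01, 9.01 and 9.13 in Control and 8.74, 8.78 and 8.73 in hCT1. It fell by 0.30 (SE 0.06, 1.23-fold lower, adjusted p = 0.00989). Cdca2, which brings protein phosphatase 1 to chromosomes, was 7.40, 7.31 and 7.34 in Control and 7.02, 7.16 and 7.13 in hCT1, a difference of -0.25 (SE 0.06, adjusted p = 0.0261). Cdca2 passed only without Control 3 or hCT1 2. The condensin core subunits Smc2 and Smc4 differed by -0.17 (adjusted p = 0.123) and -0.15 (95% interval -0.34 to 0.03, adjusted p = 0.241). Smc4 was 9.03, 8.96 and 9.15 in Control and 8.87, 9.04 and 8.76 in hCT1, and hCT1 2 overlapped the Control samples.

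Of 5 cytokinesis genes, 3 were lower, with a median of -0.31. Racgap1, a subunit of the centralspindlin complex, was 7.65, 7.68 and 7.74 in Control and 7.31, 7.33 and 7.30 in hCT1. It fell by 0.37 (SE 0.05, 1.30-fold lower, adjusted p = 0.00231). Kif23, the kinesin subunit of centralspindlin, was 8.18, 8.0 and 8.10 in Control and 7.56, 7.60 and 7.73 in hCT1, and fell by 0.46 (SE 0.07, 1.38-fold lower, adjusted p = 0.00299). Both subunits had separate groups, and Kif23 did not pass by analysis of variance with adjustment (adjusted p = 0.0503). Kif20a, a kinesin of the central spindle, differed by -0.31 (adjusted p = 0.0136) and did not pass without Control 2. Ect2, an exchange factor that acts at the cleavage site, was 8.19, 8.19 and 8.30 in Control and 8.01, 8.12 and 7.94 in hCT1 (difference -0.20, 95% interval -0.35 to -0.06, adjusted p = 0.0663). Prc1, which bundles the central spindle, differed by -0.28 (SE 0.09, adjusted p = 0.0644). Ect2 and Prc1 did not overlap between groups, as was so for 9 of the 14 genes that did not pass.

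Other cell cycle genes were counted in the same way. Of 58 further mitotic genes measured of 85 listed, 25 were lower (43.1%) and 0 were higher by limma (31 and 2 at an unadjusted p under 0.05), with a median of -0.19. Their count of lower genes was 14 without Control 1, 11 without Control 2, 13 without hCT1 1, 16 without hCT1 2 or hCT1 3, and 23 without Control 3, where 3 were higher. Pbk, a mitotic kinase, was 7.97, 8.13 and 8.17 in Control and 7.52, 7.53 and 7.41 in hCT1 (difference -0.60, SE 0.07, 1.52-fold lower, adjusted p = 0.000693). Kif20b, a kinesin of late cytokinesis, differed by -0.54 (SE 0.11, adjusted p = 0.0127). Of 12 core subunits of the anaphase-promoting complex, 2 were lower and 1 was higher, with a median of -0.09. These shares of 16.7% and 8.33% rest on 12 genes, beside 9.58% and 5.09% of all genes. The count lower was 1 without Control 1, Control 2 or any hCT1 sample. Anapc11, the RING subunit, differed by -0.38 (adjusted p = 0.0102). The higher subunit, Anapc4, differed by 0.23 (adjusted p = 0.03) and passed only without Control 3.

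Of 16 regulators (MuvB, Myb, Rb, E2F and NF-Y subunits), 5 were lower (31.2%, against 9.58% of all genes) and 0 higher by limma. At an unadjusted p under 0.05 there were 8 lower and 1 higher, and the median was -0.15. The adjusted count of lower regulators was 1 without Control 1 or Control 2, 2 without any hCT1 sample, and 6 without Control 3. E2f1, an activator of S phase genes, was 7.69, 7.71 and 7.65 in Control and 6.94, 6.93 and 6.99 in hCT1 (difference -0.73, SE 0.05, 1.66-fold lower, adjusted p = 5.04e-05). The other lower genes were E2f7 (-0.28, adjusted p = 0.0483), Lin54 of MuvB (-0.24, adjusted p = 0.0164) and Nfya of NF-Y (-0.31, adjusted p = 0.0173). With a sample left out, E2f7 passed only without Control 3. Lin54 lost the call without Control 1, Control 2 or hCT1 1, and Nfya without Control 1, Control 2, hCT1 2 or hCT1 3. E2f8, an E2F that represses, differed by -0.31 (adjusted p = 0.0204) and passed only without Control 3. Of 34 DNA replication genes, 18 were lower (52.9%) and 0 higher by limma (27 and 0 unadjusted), with a median of -0.22, led by Gins1 of the replicative helicase (difference -0.76, SE 0.09, adjusted p = 0.000767) and Rfc4 of the clamp loader (-0.65, SE 0.12, adjusted p = 0.00758). Of 12 D-type cyclins, cyclin-dependent kinases (Cdk2, Cdk4 and Cdk6) and their inhibitors, 3 were lower (25%) and 0 higher by limma (4 and 0 unadjusted). The median was -0.12, and 9.58% of all genes were lower. The count was 1 or 2 with any sample left out, and 1 after another quantile normalization or centring. Cdk2 differed by -0.20 (adjusted p = 0.0475) and, with a sample left out, passed only without Control 3. The inhibitor Cdkn2c differed by -0.44 (adjusted p = 0.0017), and Cdkn1c by -0.25 (adjusted p = 0.044), which passed only without hCT1 1. Differences between these lists and the mitotic members were not tested.

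**Figure D5:**
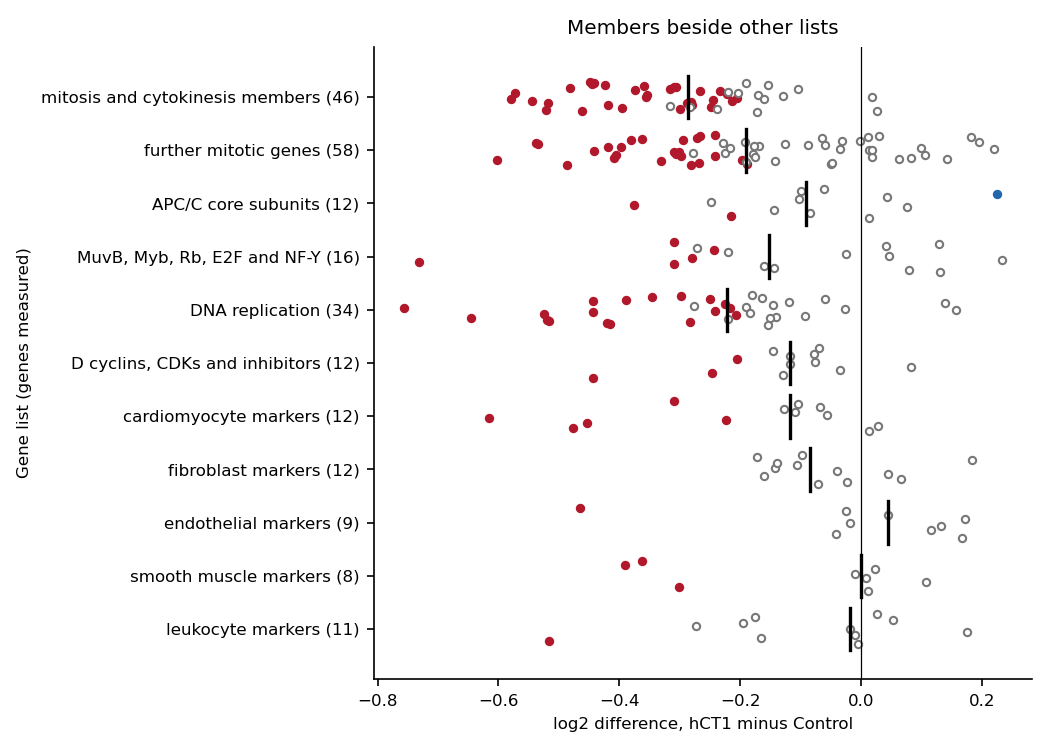
Differences of hCT1 minus Control on the log2 scale for the genes of each list, as points (red, lower; blue, higher; open, not passed) with the list median as a black line. The members' median is -0.29, that of DNA replication -0.22 and that of the further mitotic genes -0.19, against -0.0005 for all genes.

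Markers of several cell types were measured in these cultures. As the rank of each probe set among all probe sets in Control, which is not a level that can be set against another gene's, the 12 cardiomyocyte markers ran from percentile 83.5 to 99.9. Fibroblast markers ran from 47.3 (Mfap5) to 99.3 (Col1a1), and the 8 smooth muscle markers from 57.4 (Rgs5) to 99.9 (Acta2). In the sum of linear signal, the 12 cardiomyocyte markers ranged over 29620 to 29760 in Control and 26770 to 28110 in hCT1. Of these, 5 were lower, Tnni3 (-0.62), Myl2 (-0.48), Myh6 (-0.45), Mybpc3 (-0.31) and Ttn (-0.22). That is 41.7%, against 9.58% of all genes, and the median difference of the 12 was -0.12. In 9 of the 12 all hCT1 samples lay below all Control samples, as in 20.0% of all genes. The 12 fibroblast markers summed to 9223 to 9670 and 8705 to 8973, and 0 passed in limma (without adjustment, 2 were lower and 1 higher). The 8 smooth muscle markers summed to 10430 to 10630 and 9870 to 10030, with Myh11, Smtn and Tagln lower (37.5%). Their median difference was -0.0004, and 5 of 8 overlapped between groups. Without Tagln their sums overlapped, at 7542 to 7585 and 7514 to 7618. The 9 endothelial markers summed to 1217 to 1370 and 1245 to 1283, overlapping, with Emcn lower (-0.47), which is 1 of 9 (11.1%) against 9.58% of all genes. The 11 leukocyte markers summed to 586.3 to 618.7 and 481.1 to 544.3, with Lyz2 lower (-0.52), which is 1 of 11 (9.09%), and 5 of them were dimmer than the 40th percentile. Their median difference was -0.02, 9 of 11 overlapped between groups, and without Lyz2 the sums overlapped at 344.8 to 362.6 and 314.5 to 351.5. By the same sum the 46 mitotic members ran from 12010 to 12700 in Control and from 9899 to 10370 in hCT1. No detection calls were used, so these values do not show which markers were expressed. The dimmest leukocyte markers, Itgam and Ptprc, stood at percentiles 23 and 23.2 in Control. The sums without Tagln or Lyz2 were chosen after seeing the data. The sums follow their brightest members, and 9 of 12 fibroblast markers overlapped between groups although their sums did not. Overlap is common on this array, and these counts alone say little about the markers. Of all genes, 20.0% had all hCT1 samples below all Control samples and 14.2% had them above. The part of these cell types in the mitotic result was not tested.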

How the data were processed

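Affymetrix arrays for whole rat transcripts were run on total RNA of 6 samples. The deposited values are log2 signals made by the authors with RMA in Affymetrix Expression Console, per the submitters' processing notes, and versions are not given in the sources used here. RMA fits a background and evens the arrays, which can compress small differences and hide a shift of all genes. No per-array depth exists for array data, and the number of arrays limits the precision.

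Of 29215 probe sets, 15310 were paired with 1 symbol, 323 with several and 13582 with none in the platform table. Probe sets with 1 symbol were tested by limma 3.58.1 (R 4.3.3), 2-sided, hCT1 against Control, with Benjamini-Hochberg adjustment over the 15310 and a threshold of 0.05. Pipeline code was checked on simulated data. Groups came from the sample labels. The alternatives were trend with robust fitting, 1-way analysis of variance as in the methods, array weights, a filter under the 40th percentile, adjustment over all probe sets, renormalisation, centring, averaged probe sets, a replicate block, a threshold of 0.01 and each sample left out.

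Every member was named once. Sample values were given, in each role, for the 2 members with the smallest adjusted p and the 1 with the largest. They were also given for Nek2, Pbk and E2f1. Of the other cell cycle lists, the 2 largest differences that passed were named. The members and lists were chosen with earlier results of these data known. Promoters were searched with Python 3.11.15.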

Additional observations from a re-analysis of the deposited data

How the results depend on the processing

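Among members, the number lower was 15 by one-way analysis of variance with adjustment and 16 at an adjusted p of 0.01, against 32. It was 17 to 28 with a sample left out, 26 with the replicate block, 35 with trend and robust fitting, 34 by analysis of variance without adjustment, 33 with array weights, 36 with dim probe sets filtered, 23 with adjustment over all probe sets, 23 after another quantile normalization, 26 after centring and 32 with averaged probe sets, with 0 higher throughout. By role in the order of the report, adjusted analysis of variance called 1, 4, 1, 3, 1, 3, 1 and 1 lower. Among the members with sample values it lost Foxm1, Cdk1, Nek2, Plk1, Ndc80, Cdca2 and Kif23, and it gained Cdc20. The members' median was -0.25 after another quantile normalization and -0.32 to -0.26 with a sample left out.

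Of further mitotic genes, 9 were lower by adjusted analysis of variance, 7 at 0.01, 17 with the replicate block and 11 to 23 with a sample left out. The number higher was 1 with trend and robust fitting, 2 by unadjusted analysis of variance, 2 with array weights, 1 with the dim filter, 1 after quantile normalization and 0 to 3 with a sample left out. After another quantile normalization or centring, 1 subunit of the anaphase-promoting complex and 1 gene of the D-type cyclin list were lower, and adjusted analysis of variance gave 0 subunits, 2 genes of the D-type cyclin list and 2 regulators. Same-numbered samples deviated from their group means with correlations of -0.03, 0.05 and -0.28. The labels do not say whether the numbers pair the samples, and these values cannot settle it.

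Bub3 turned to -0.0019 with array weights and -0.030 without Control 3, and Cdc25c to -0.040 without Control 2 and -0.018 without hCT1 3 (ranges with a sample left out -0.030 to 0.056 and -0.040 to 0.066). Of 408 pairs of a named member and an alternative, 362 kept direction and side of the threshold, 31 lost the call, 11 gained it and 4 changed sign. The cause was not tested.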
